A study of Mus musculus with 10 samples.

Results

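Meningeal fibroblast nuclei were taken from single-nucleus RNA profiles of mouse hippocampus and prefrontal cortex by a gate on 8 genes of meningeal fibroblasts. These were the transporter genes Slc6a13, Slc6a20a, Slc13a4 and Slc22a6, the extracellular matrix genes Col1a2, Dcn and Aebp1, and Ranbp3l. The nuclei were thus chosen by their measured UMI counts of these genes. A nucleus passed with at least 3 UMIs (unique molecular identifiers, each standing for 1 captured transcript) from at least 2 of these genes, together at least 0.2% of its UMIs. In all, 103 of 11624 nuclei passed, which is 0.886%. They are called fibroblast nuclei here, and the remaining 11521 are called other nuclei. Profiles came from DroNc-seq, which encloses single nuclei with barcoded beads in droplets, and from stored frozen brain tissue of C57BL/6 mice. The hippocampus (5658 nuclei) and the cortex (5966 nuclei) each had 5 libraries, whose titles carry the numbers 0 to 3, with a library a and a library b for number 0. Libraries that share a region and a number were summed, giving 4 units per region. The series design names 4 mice, but the labels do not tie a number to a mouse, so each p-value reflects only how far these units scatter, and that scatter may be technical. The labels give no age, sex or treatment.

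Fibroblasts of the meninges build the pia, arachnoid and dura, the connective tissue layers around the brain, and accompany larger vessels into it. They lay down collagens and basement membrane, and they are known as a source of retinoic acid, bone morphogenetic proteins, insulin-like growth factor 2 and chemokines for the underlying brain. The arachnoid layer is joined by tight junctions and carries organic anion, amino acid and neurotransmitter transporters that clear solutes from the cerebrospinal fluid.

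The gate genes chose the nuclei, so their values are a description only. Within the fibroblast nuclei, Aebp1 had 140 UMIs, Slc6a20a 133, Slc6a13 124, Col1a2 92, Dcn 78, Ranbp3l 70, Slc13a4 62 and Slc22a6 54. These nuclei, 0.787% of all UMIs, held 55.1% of all Slc6a13 UMIs, 54.0% of Slc22a6 UMIs and 26.8% of Col1a2 UMIs. Both a transporter and a matrix gene of the gate were seen in 89 nuclei, only transporter genes in 11 and only matrix genes in 3. The gate genes made a median of 0.430% of a passing nucleus, with a lowest value of 0.203% and a highest of 2.61%, and the nearest nucleus below the limit that met the other terms had 0.198%. A further 84 nuclei had enough gate UMIs and genes but fell under 0.2%, and these were deep nuclei with a median of 4410.5 UMIs. Another 11 nuclei had 2 UMIs from 2 gate genes. Ptgds, which was not in the gate, was at 11200.5 CPM (UMIs of a gene in proportion to all UMIs of the same nuclei) in the 19 fibroblast nuclei with exactly 3 gate UMIs, at 6754 in those 11 nuclei, at 1992 in the 84 deep nuclei and at 218.5 in the 10762 nuclei with no gate UMI.

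The fibroblast nuclei held 159133 UMIs in total, between 3058 (Hippocampus 1) and 37647 (Cortex 1) per unit. By unit, 20, 3, 8 and 9 nuclei passed in Hippocampus 0, 1, 2 and 3, and 11, 22, 14 and 16 in Cortex 0, 1, 2 and 3. Hippocampus 1, with 3 nuclei, was left out of all gene tests, which used the 7 units with at least 5 fibroblast nuclei. No barcode of a fibroblast nucleus recurred in another library, and library pairs shared at most 3 barcodes. The median fibroblast nucleus held 1174 UMIs and the median other nucleus 1203. Within units the median was lower in fibroblast than in other nuclei in 5 of 8 units, with a mean difference of -178.3 UMIs and a two-sided exact sign-flip permutation p of 0.188. Mitochondrial genes made 0.131% of UMIs in fibroblast nuclei and 0.0807% in other nuclei, and the share was higher in fibroblast nuclei in each of the 8 units. The part of this in the results was not tested. Doublet scores called 12 of the 103 nuclei (11.7%), against 7.61% of other nuclei. Gates for other classes, built from 8 marker genes each in the same way, also passed 27 of the fibroblast nuclei as astrocyte (26.2%, against 7.92% of other nuclei), 5 as endothelial, 4 as mural, 2 as oligodendrocyte and 0 as microglia. In all 31 passed at least 1 of these gates.

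**Figure D1:**
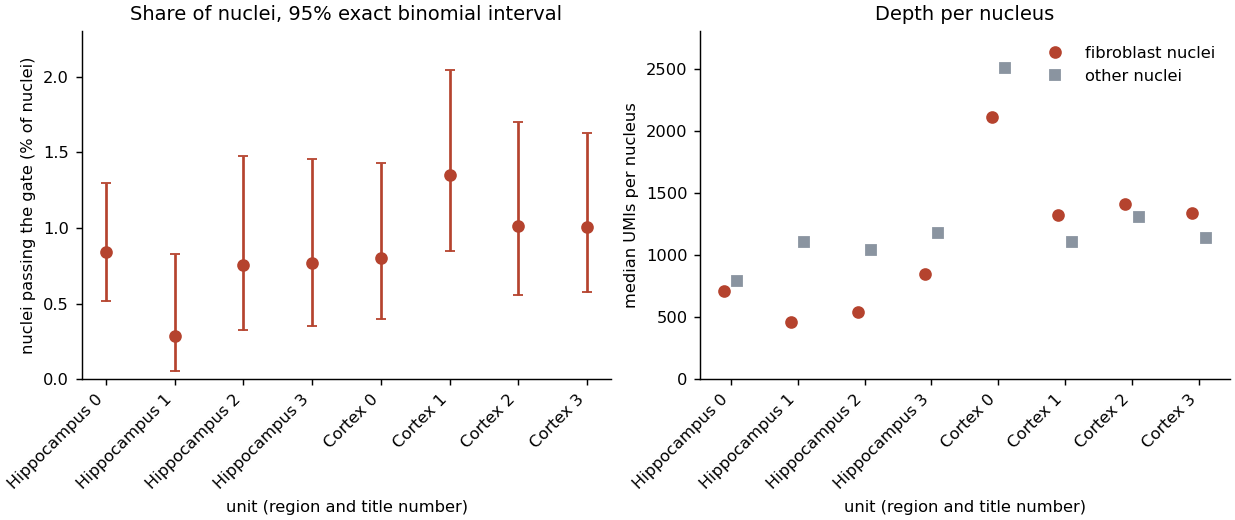
The left panel plots the percent of nuclei that passed the gate in each unit (region and title number) with its 95% exact binomial interval, which covers counting error only; the right panel plots the median UMIs per nucleus of fibroblast nuclei (circles) and other nuclei (squares). The share runs between 0.284% in Hippocampus 1 and 1.35% in Cortex 1, and fibroblast nuclei are shallower than other nuclei in the 4 hippocampal units and in Cortex 0.

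The label was checked against 18 fibroblast genes outside the gate, among them collagen genes, platelet-derived growth factor receptors and forkhead factors. All 18 were detected, and all 18 had a higher summed level in fibroblast than in other nuclei. The gene lists were chosen with earlier results of these data known, so this is no independent check. Some genes rested on few fibroblast UMIs, with 2 for Eya2, 3 for Bnc2 and 4 for Fbln1. Lum, a small leucine-rich proteoglycan of fibrous matrix, was at 75.4 CPM in fibroblast nuclei and 1.89 in other nuclei. Ogn, another such proteoglycan, was at 132 and 4.58 CPM, and Tbx18, a T-box factor of mesothelial and mural lineages, at 100.5 and 3.89. Of the 9 genes with enough counts for the test described next, 8 were higher and 0 lower, and Pdgfrb had an adjusted p of 0.053 by edgeR's quasi-likelihood test. The low-count filter of that test let genes rare in other nuclei enter only as higher.

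The first comparison asked which genes besides the gate set the fibroblast nuclei apart. Counts were summed per unit and class and tested with edgeR's quasi-likelihood test and Benjamini-Hochberg adjustment, with the unit as a term. A low-count filter by class came first. A gene under its limit in all sums of other nuclei passed only if each of the 7 fibroblast sums held a UMI. For such a gene, being higher in 7 of 7 units without overlap was a condition of the test, not a result. Medians of gene lists and counts of their lower genes share this limit. Of 9570 genes tested, 151 were higher in fibroblast nuclei (1.58%) and 321 lower (3.35%) at an adjusted p under 0.05. That split depended on scaling. The scaling factors (TMM) multiplied the library sizes of the shallowest fibroblast sums, Hippocampus 2 and 3, by 2.89 and 1.96, and those of the other fibroblast sums by 0.908 to 1.05, against 0.782 to 0.799 for other nuclei. The median log2 fold change of all genes was then -0.54, and with library sizes left at total UMIs it was -0.07, with 277 genes higher and 77 lower. With title numbers 1 to 3 only, 92 were higher and 28 lower. Leaving out the 31 nuclei that passed another gate gave 59 higher and 120 lower. In gene tests this setting also lost the unit Hippocampus 3, leaving 67 fibroblast nuclei in 2 hippocampal and 4 cortical units. The part of the lost unit in calls that were lost with this setting was not tested. In simulated data the main test recovered 3.06% of log2 changes of 1 and 30.4% of those of 2. A gene without a call, or a list with 0 calls, thus does not show an absence of change. Levels are CPM without a scaling factor, given as the lowest, median and highest of 7 units, and fold changes are those of the scaled test.

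Ptgds, the lipocalin-type prostaglandin D synthase and a major secreted protein of the arachnoid, rose in every unit. It ran from 7157 CPM through a median of 16630 to 24930 in fibroblast nuclei, against 226, 268 and 444 in other nuclei. The groups did not overlap, and the log2 fold change was 5.09 ± 0.42 (SE, edgeR adjusted p = 6.62e-30). Ptgds was seen in 95 of 103 fibroblast nuclei (92.2%), in 32.2% of endothelial-gated nuclei, whose median depth was 2021.5 UMIs, and in 20.1% of other nuclei. It made a median of 1.02% of a fibroblast nucleus and up to 9.09%, and the fibroblast nuclei held 27.8% of all Ptgds UMIs. Aldh1a2, the enzyme that makes retinoic acid from retinaldehyde in mesenchyme, had a log2 fold change of 6.03 ± 0.54 (edgeR adjusted p = 1.68e-19). Its level was 38.0, 103 and 456 CPM in fibroblast nuclei, against 0.428, 0.788 and 2.11 in other nuclei, from 17 UMIs in 15 fibroblast nuclei. The fibroblast nuclei held 46.0% of all Aldh1a2 UMIs in the series.

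Ptgds, Aldh1a2, Zic1 and Zic4 each rose in 7 of 7 units, which the low-count filter fixed for Aldh1a2, and are known in the meninges. Their upstream sequences are therefore shown, with the Zic1 and Zic4 pair described below. Each is the 250 bases before the RefSeq start (GRCm38.p6), read 5′ to 3′ on the gene's strand, with 4 motifs in capitals where they match on either strand: the TATA box as TATAAA, the CAAT box as CCAAT, the GC box as GGGCGG and an E-box as CAGCTG.
Ptgds, chr2:25469750-25469999, minus strand: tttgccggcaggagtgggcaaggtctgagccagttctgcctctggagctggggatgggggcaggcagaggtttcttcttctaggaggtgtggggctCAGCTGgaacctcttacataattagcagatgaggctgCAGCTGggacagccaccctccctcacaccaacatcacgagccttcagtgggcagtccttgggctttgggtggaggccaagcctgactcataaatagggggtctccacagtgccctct
Aldh1a2, chr9:71215539-71215788, plus strand: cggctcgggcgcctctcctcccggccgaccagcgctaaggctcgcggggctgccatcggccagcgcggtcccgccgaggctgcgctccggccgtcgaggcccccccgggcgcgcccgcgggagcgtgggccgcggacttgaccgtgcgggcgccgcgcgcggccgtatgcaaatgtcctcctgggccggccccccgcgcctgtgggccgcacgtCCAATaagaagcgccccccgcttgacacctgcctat
Zic1, chr9:91365769-91366018, minus strand: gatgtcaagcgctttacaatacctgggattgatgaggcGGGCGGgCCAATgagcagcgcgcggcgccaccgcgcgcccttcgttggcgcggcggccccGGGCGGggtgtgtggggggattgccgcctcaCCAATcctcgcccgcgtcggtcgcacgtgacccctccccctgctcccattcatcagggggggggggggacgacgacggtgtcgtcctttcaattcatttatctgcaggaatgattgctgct
Zic4, chr9:91368722-91368971, plus strand: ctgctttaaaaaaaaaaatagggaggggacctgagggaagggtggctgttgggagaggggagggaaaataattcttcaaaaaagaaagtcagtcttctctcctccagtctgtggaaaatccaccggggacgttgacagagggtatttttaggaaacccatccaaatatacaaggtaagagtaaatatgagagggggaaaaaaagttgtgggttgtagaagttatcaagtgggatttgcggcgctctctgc
The Ptgds window holds 2 copies of CAGCTG, a motif found in 12.77% of 27025 such promoters, and the Aldh1a2 window 1 copy of CCAAT, found in 34.46%. The Zic1 window holds 2 copies of CCAAT and 2 of GGGCGG, a motif found in 32.94% of promoters. TATAAA was found in 12.97% of promoters and in none of these 4, and the Zic4 window holds none of the 4 motifs. G and C made 77.6% of the Aldh1a2 window, 66.0% of Zic1, 58.4% of Ptgds and 44.4% of Zic4, against a median of 52.0% over all promoters.

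**Figure D2:**
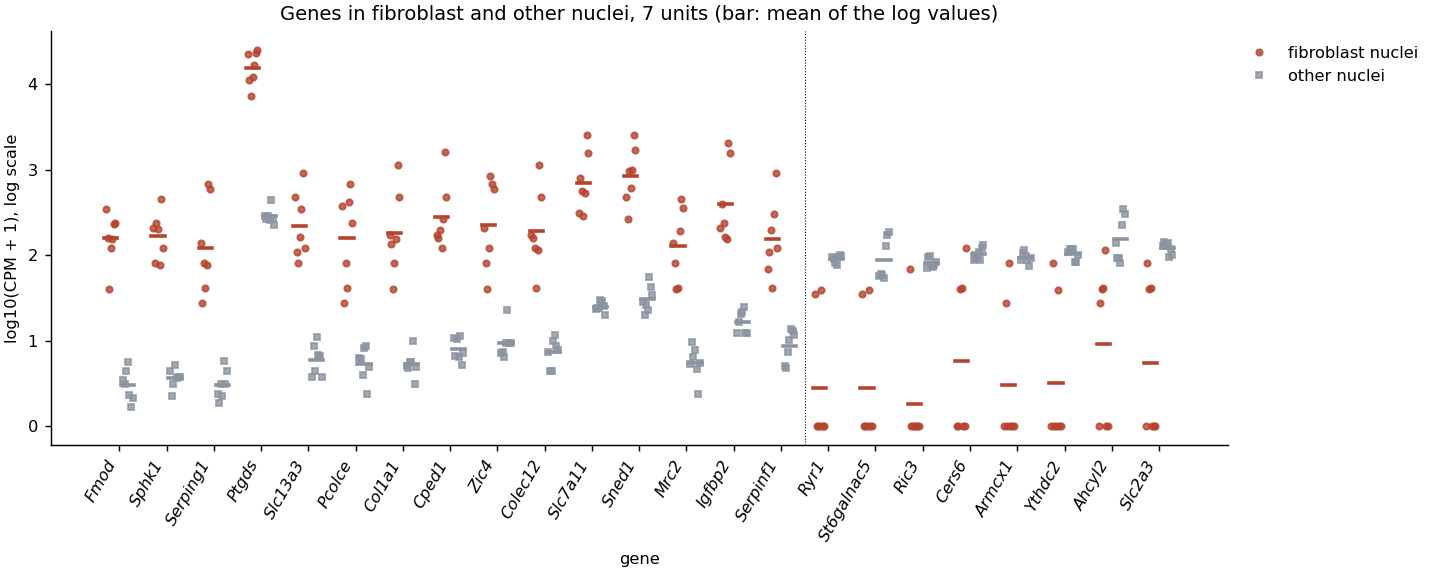
Each symbol is 1 of 7 units, with log10(CPM + 1) on the vertical axis for the 15 genes with the largest rise and the 8 with the largest fall that met the naming rule (left and right of the dotted line), fibroblast nuclei as circles and other nuclei as squares, and bars as means of the log values. Every fibroblast unit lies above every unit of other nuclei for the 15 higher genes, and most fibroblast units lie at 0 for most of the 8 lower genes. For higher genes that are rare in other nuclei, the low-count filter fixed this separation in advance.

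Matrix genes were a second group. Col1a1, a chain of the main fibrillar collagen of connective tissue, ran from 39.5 through 152 to 1139 CPM in fibroblast nuclei, against 2.08, 4.11 and 8.93 in other nuclei, a log2 fold change of 4.69 ± 0.44. Fmod (fibromodulin), which binds collagen fibrils, was at 39.5, 159 and 342, against 0.695, 2.14 and 4.64, a log2 fold change of 5.70 ± 0.44. Both genes were rare in other nuclei, so the low-count filter fixed in advance that their units were fully apart. Of 24 collagen genes 10 were tested, and 2 rose (Col1a1 and Col3a1) while 0 fell, with a median log2 fold change of -0.20 beside -0.54 for all genes. Of 42 other matrix genes 16 were tested, 5 rose (Fmod, Efemp1, Nid1, Fn1 and Lama2) and 0 fell, with a median of 0.88. These medians hold for genes that passed the filter, so they do not show a shift of the whole lists. Among 28 enzymes and inhibitors that act on matrix, 15 were tested and 5 rose. These were Cped1, the procollagen C-proteinase enhancer Pcolce, the C1 inhibitor Serping1, the metalloproteinase inhibitor Timp3 and the collagen chaperone Serpinh1, and 0 fell. Pcolce was at 26.6, 238 and 684 CPM in fibroblast nuclei, against 1.39, 5.13 and 7.62 in other nuclei. Mrc2, a collagen uptake receptor, was at 39.5, 137 and 456 CPM, against 1.39, 4.48 and 8.55, and Serpinf1, a secreted serpin, at 40.4, 119 and 912, against 3.85, 9.28 and 12.6. Fn1 and Serpinh1 were not called without nuclei that passed another gate, at log2 fold changes of 1.12 and 1.85. Of the contractile and cytoskeletal genes 10 were tested and 0 passed in either direction.

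Transporters of barrier layers outside the gate rose in part. Slc7a11, the cystine-glutamate exchanger, was at 283, 554 and 2507 CPM in fibroblast nuclei, against 19.03, 23.3 and 28.7 in other nuclei, a log2 fold change of 4.22 ± 0.32 (edgeR adjusted p = 5.61e-37). Slc13a3, a sodium-coupled dicarboxylate transporter, was at 79.1, 162 and 912, against 2.74, 5.56 and 10.1, a log2 fold change of 5.06 ± 0.39. Slc22a8, an organic anion transporter whose gene starts 26785 bases from the gate gene Slc22a6 on chromosome 19, was at 119, 266 and 456, against 15.3, 25.2 and 46.5. None of the 3 genes overlapped between the classes, which for Slc13a3 was fixed by the low-count filter. On the list of 41 transporter genes, which does not hold Slc13a3, 31 were tested, 8 rose and 3 fell, with a median of -0.17. Among those that rose were Slc7a11, Slc22a8, the glutamate transporter Slc1a3, the magnesium exchanger Slc41a1, the amino acid transporters Slc38a2 and Slc38a3, and Slc16a11. Those that fell were the neuronal glucose transporter Slc2a3, Slc7a14 and the sodium pump subunit Atp1b1, and with library sizes left at total UMIs only Slc2a3 still passed. Slc38a3 was not called without nuclei that passed another gate, at a log2 fold change of 1.14. Slc22a2, an organic cation transporter, was under the low-count filter, but 11 of its 20 UMIs in the series were in 7 fibroblast nuclei, and without the filter its log2 fold change was 6.35 ± 0.79 (edgeR adjusted p = 8.01e-13).

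Lipid carriers and secreted binding proteins followed. Apod, apolipoprotein D, was at 316, 1094 and 6153 CPM in fibroblast nuclei, against 41.5, 78.9 and 126 in other nuclei, without overlap and with a log2 fold change of 3.66 ± 0.32. Of 19 lipid carrier and prostaglandin genes 11 were tested and 3 rose (Ptgds, Apod and Apoe), with 0 lower and a median of 0.61. Leaving out nuclei that passed another gate, Apoe had a log2 fold change of 0.46 and was not called, against 1.78 with them. Among 18 complement and interferon genes 9 were tested and 3 rose, Serping1 and C4b among them, with 0 lower and a median of 1.11. Sned1 and Colec12, a matrix glycoprotein and a scavenger receptor, had log2 fold changes of 4.16 ± 0.31 and 4.29 ± 0.43. Sphk1, which makes sphingosine 1-phosphate, was at 75.9, 202 and 456 CPM in fibroblast nuclei, against 1.28, 2.78 and 4.22 in other nuclei, and its log2 fold change was 5.38 ± 0.45. Apod, Sned1, Colec12 and Sphk1 were higher in 7 of 7 units, which for Sned1, Colec12 and Sphk1 was a condition of being named.

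Signalling genes were described by pathway. Igf2, a growth factor of the meninges and choroid plexus, was at 0 to 2279 CPM in fibroblast nuclei with a median of 274, against 1.39, 9.28 and 14.7 in other nuclei. It was higher in 6 of 7 units, the exception being Cortex 3 with no Igf2 UMI, and its log2 fold change was 4.83 ± 0.36. Igfbp2, a binding protein of this factor, was at 152, 237 and 2051, against 11.1, 15.4 and 23.9, with no overlap. Of 15 genes of this list 10 were tested and 4 rose (Igf2, Igfbp2, Igfbp5 and the protease Htra1), with a median of 1.09. The retinoid list had 4 of 20 genes tested and 2 higher, Aldh1a2 among them. Of the BMP and TGF-beta list 14 of 35 were tested and 2 rose (Id3 and Tgfbr3), of the WNT list 10 of 34 and 2 rose (Wnt5a and its receptor Fzd2), and of the FGF, PDGF and hedgehog list 20 of 41 and 5 rose (Pdgfra, Fgfr1, Fgfr3, Ptn and Mdk). No tested member of these 4 lists fell, and the medians of their tested genes were 1.69, 0.53, 0.34 and 0.24, beside -0.54 for all genes. The filter let genes rare in other nuclei enter only as higher, so these values do not show a shift of the whole lists. Bmp4 and Bmp7, which encode BMP ligands, were under the low-count filter. Bmp4 had 17 UMIs in 14 fibroblast nuclei and 106.8 CPM, against 3.64 in other nuclei, and Bmp7 had 15 UMIs in 13 nuclei and 94.3, against 2.79. Without the filter both passed, with log2 fold changes of 4.278 ± 0.54 and 4.402 ± 0.58. Among other BMP ligand genes without the filter, Bmp6 passed at 5.57 from 2 fibroblast UMIs. Bmp5 at 2.77 from 3 UMIs and Bmp2 at -0.10 from 2 UMIs were not called. Leaving out nuclei that passed another gate, Igfbp5 had a log2 fold change of -1.56, Id3 -0.58, Htra1 -0.39 and Fgfr3 -0.20, and Fgfr1 had 0.51, Mdk 0.86, Ptn 0.91, Tgfbr3 1.15 and Pdgfra 1.97, none of them called.

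Transcription factors of the Zic family rose together. Zic1 and Zic4 are zinc finger factors whose starts lie 3397 bases apart on opposite strands of chromosome 9, with overlapping gene bodies in GENCODE (chr9:91358058-91365810 and chr9:91362413-91389348, GRCm38). The RefSeq start used for the Zic4 window above lies inside that GENCODE gene body, so the window is upstream of the RefSeq start only. The sources used here do not give whether counting used strand, so reads over the shared stretch cannot be told apart between them. Zic1 was at 119, 304 and 1193 CPM in fibroblast nuclei, against 9.36, 13.6 and 62.8 in other nuclei, a log2 fold change of 3.54 ± 0.36. Zic4 was at 39.5, 205 and 835, against 5.51, 8.34 and 21.5, a log2 fold change of 4.39 ± 0.38. Neither gene overlapped between the classes. Zic2 and Zic5, a second pair on chromosome 14, were under the low-count filter with 8 and 13 UMIs in fibroblast nuclei, and without it had log2 fold changes of 3.09 ± 0.70 and 2.90 ± 0.55 (edgeR adjusted p = 0.0014 and 2.35e-05). Of 50 mesenchymal and meningeal factors 21 were tested, 6 rose and 0 fell, with a median of 0.65 over the genes that passed the filter. Besides Zic1 and Zic4 these were Tfap2b, Osr1, Nr2f2 and Foxc1, the last a forkhead factor required for meningeal development in mouse. Foxc1 was not called without nuclei that passed another gate, at a log2 fold change of 1.45, without Cortex 1, with title numbers 1 to 3 or with the stricter gate. Osr1 had no overlap between the classes, at 38.0 to 228 CPM in fibroblast nuclei and 0.913 to 4.28 in other nuclei. The filter fixed this in advance. Twist1, Twist2 and Foxf1 had no UMI in the fibroblast nuclei, which allows up to 3 counts in 159133 UMIs.

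Small lists of genes that mark meningeal layers were read side by side. Of 9 arachnoid genes 4 were tested and Ptgds and Aldh1a2 rose. Of 8 pial and perivascular genes 2 were tested and Lama2 rose, and of 8 dural genes 5 were tested and Fmod rose, with 0 lower on each list. The medians of these lists were 2.968, 1.545 and 0.127, beside -0.54 for all genes, of which 1.58% rose and 3.35% fell. Lists this small, chosen with earlier results known and cut by the low-count filter, cannot tell which layer the nuclei came from. Adhesion and junction genes had 18 of 30 tested, 3 higher (Gjb6, Gja1 and Vcam1) and 1 lower (Cldn5, a tight junction gene of endothelium), with a median of 0.17. Gjb6, a connexin that meningeal cells share with astrocytes, was at 158, 532 and 1139 CPM in fibroblast nuclei, against 23.9, 48.7 and 74.4 in other nuclei. Gjb2, the connexin gene 28909 bases from it on chromosome 14, had 19 UMIs in 17 fibroblast nuclei, and without the low-count filter its log2 fold change was 4.25 ± 0.51.

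**Figure D3:**
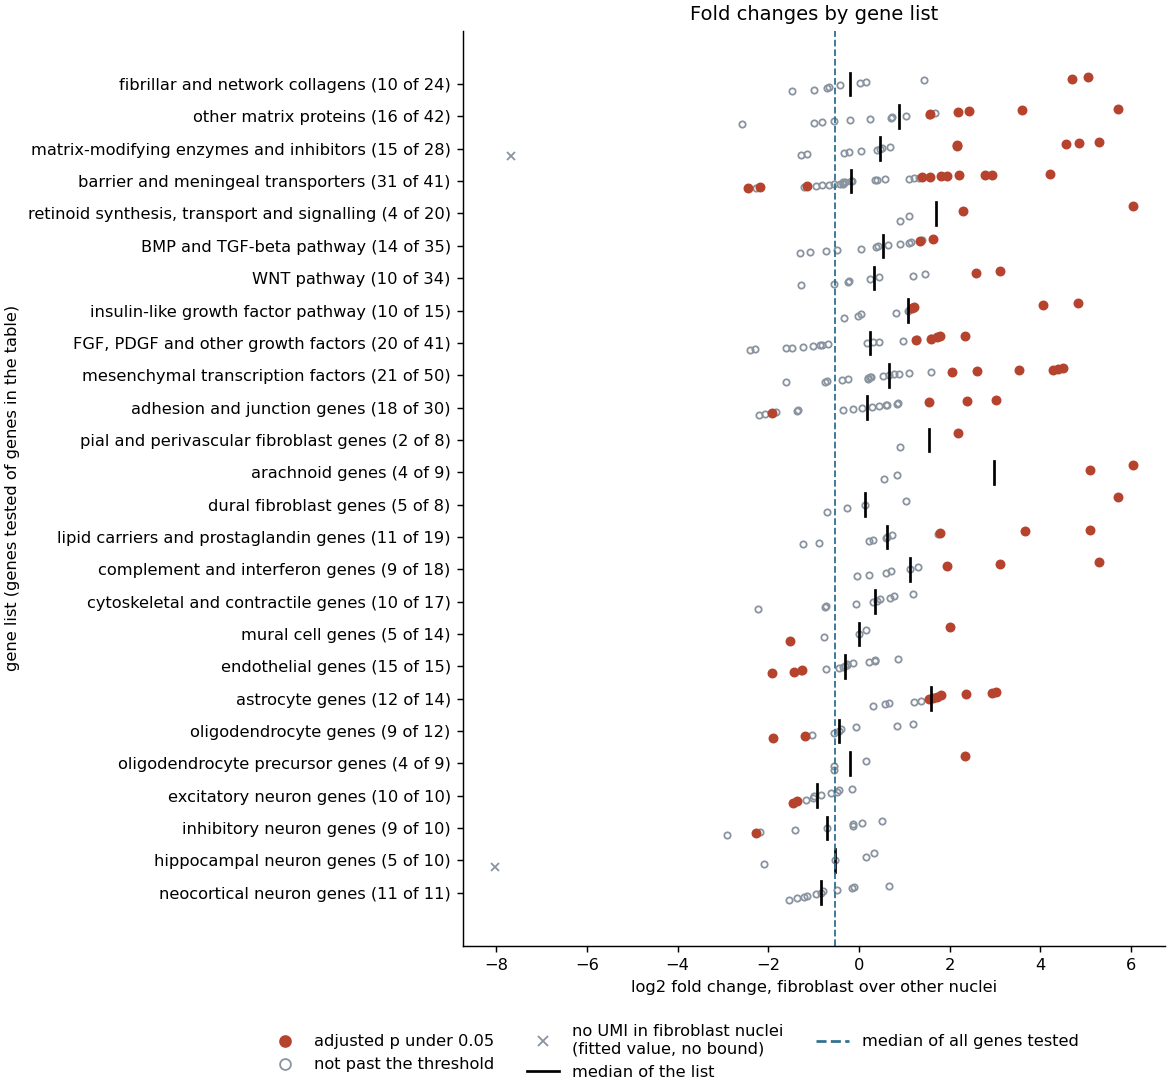
Each point is 1 gene tested, placed by its log2 fold change of fibroblast over other nuclei within the gene list named at the left, which also gives the genes tested of those in the table. Filled points passed an adjusted p under 0.05, crosses had no UMI in fibroblast nuclei so that their fitted value is no bound, the short line is the list's median and the dashed line the median of all genes (-0.54). The filled points of the matrix, signalling and factor lists lie to the right and those of the endothelial, oligodendrocyte and neuron lists to the left, while the transporter list has 3 filled points and the junction list 1 to the left. Genes rare in other nuclei passed the low-count filter only when seen in each fibroblast sum, so such genes can lie only to the right.

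Markers of other classes moved with these results. Astrocyte genes summed to 10413 CPM in fibroblast nuclei (8011 to 32374 over the 8 units), against 2315 in other nuclei (1282 to 3693). Of 14 astrocyte genes 12 were tested, 7 rose (Gjb6, Slc1a3, Aldh1l1, Gja1, Aqp4 and Fgfr3 among them) and 0 fell, with a median of 1.58. When the 31 nuclei that passed another gate were left out, Gjb6 kept a log2 fold change of 2.56 and was called, while Gja1 was at -0.22 and Aqp4 at -2.61, not called. Aqp4, Gja1, Gjb6 and Aldh1l1 are themselves genes of the astrocyte gate, so that removal had to lower them. Mural genes summed to 1137 CPM, against 859 in other nuclei, with Kcnj8, Ndufa4l2 and Mcam at 0 in fibroblast nuclei, and of 5 tested Vtn rose and Rgs5 fell. Endothelial genes summed to 1445, against 1614, with 15 tested, 0 higher and 3 lower. Oligodendrocyte genes summed to 1232, against 1580, with 0 higher and 2 lower of 9 tested. Excitatory neuron genes summed to 1464, against 2156, with 0 higher and 2 lower of 10 tested. Microglia and macrophage genes summed to 195, against 127, and 5 of 15, Cx3cr1 and Lyve1 among them, had no UMI. Choroid plexus and ependymal genes summed to 886, against 266, with a median over the 8 units of 131, against 48.4, and 0 of 12 were tested. The part of these transcripts in the genes called above was not tested.

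Among the genes that fell, the calcium release channel Ryr1 was at 0 to 38.0 CPM in fibroblast nuclei with a median of 0, against 75.5, 93.0 and 100.1 in other nuclei, a log2 fold change of -3.23 ± 0.80 from 2 fibroblast UMIs. St6galnac5, a brain sialyltransferase, had a log2 fold change of -3.22 ± 0.80, and Ric3, a chaperone of acetylcholine receptors, -3.09 ± 0.81. Cers6, Armcx1, Ythdc2, Ahcyl2 and Slc2a3 had values of -2.82 to -2.45. All 8 were lower in 7 of 7 units, which the rule for naming genes required. All 8 still passed with library sizes left at total UMIs. By DESeq2 only 2 of the 8 had a value, and both passed. With title numbers 1 to 3, 5 of the 8 lost their call (Cers6, Armcx1, Ythdc2, Ahcyl2 and Slc2a3). Ric3, Armcx1 and Ythdc2 lost it without Cortex 2 and without nuclei that passed another gate, and Ric3 also without Cortex 1 and Ythdc2 without Cortex 0 or Cortex 3. Camk2a, the calcium-dependent kinase of excitatory neurons, was at 342 to 565 CPM in fibroblast nuclei and 833 to 1031 in other nuclei, a log2 fold change of -1.46 ± 0.35. It was seen in 45 fibroblast nuclei.

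The second comparison set fibroblast nuclei against endothelial nuclei, the vascular class of the same tissue. The 5 nuclei that passed both gates were left out, so over the 7 units it used 95 fibroblast nuclei and 368 of the 398 nuclei in the endothelial but not the fibroblast gate. That removal takes out fibroblast nuclei with endothelial transcripts, so the low endothelial gene values below hold for these 95 nuclei. Of 478 genes with enough counts in both, 143 were higher in fibroblast nuclei (29.9%) and 208 lower (43.5%) by edgeR's quasi-likelihood test. With other size factors (RLE) the split was 83 higher and 280 lower, and with total UMIs 117 and 249. Without Hippocampus 2, the shallowest unit, 1152 genes could be tested, with 297 higher and 408 lower. Ptgds was at 7207, 16630 and 25010 CPM in fibroblast nuclei, against 128, 350 and 501 in endothelial nuclei, a log2 fold change of 5.86 ± 0.27. Slc7a11 was at 283, 573 and 2507, against 0, 38.4 and 82.1, a log2 fold change of 4.47 ± 0.33. Alcam, an adhesion molecule of meninges and other cells, was at 811, 1211 and 3418, against 15.6, 77.0 and 197, a log2 fold change of 4.04 ± 0.25. Sned1, Aifm3, Rnpc3, Slc1a3 and Appl2 had log2 fold changes between 2.81 and 3.94. Each of these 8 genes was higher in 7 of 7 units, which the rule for naming genes required.

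Endothelial genes stood on the other side. Podxl, a sialomucin of endothelium, had 0 UMIs in the 95 fibroblast nuclei and 4 in all 103, against 582 in endothelial nuclei. Ctla2a had 0 UMIs in the 95 and 3 in all 103, against 622. Gpr116, an adhesion receptor of endothelium, had 1 UMI in the 95 and 7 in all 103, against 1748. The haemoglobin gene Hba-a1, whose near-identical copy in the mouse genome makes its count uncertain, had 1 and 11 UMIs, against 1141. Rgs5, a pericyte gene, had 9 and 42 UMIs, against 7232, and was at 0 to 228 CPM in the units of the 95 fibroblast nuclei and 4394 to 6835 in endothelial nuclei. Of the 151 genes higher than in other nuclei, 27 could be tested against endothelial nuclei, of which 13 were higher there too and 6 were lower. Vtn was among those lower, with a log2 fold change of -0.92 ± 0.29, although it was higher than in endothelial nuclei in 2 of 7 units. Apod, Apoe and Slc38a2 were higher than in endothelial nuclei, with log2 fold changes of 2.53 ± 0.27, 1.61 ± 0.23 and 2.54 ± 0.27.

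**Figure D4:**
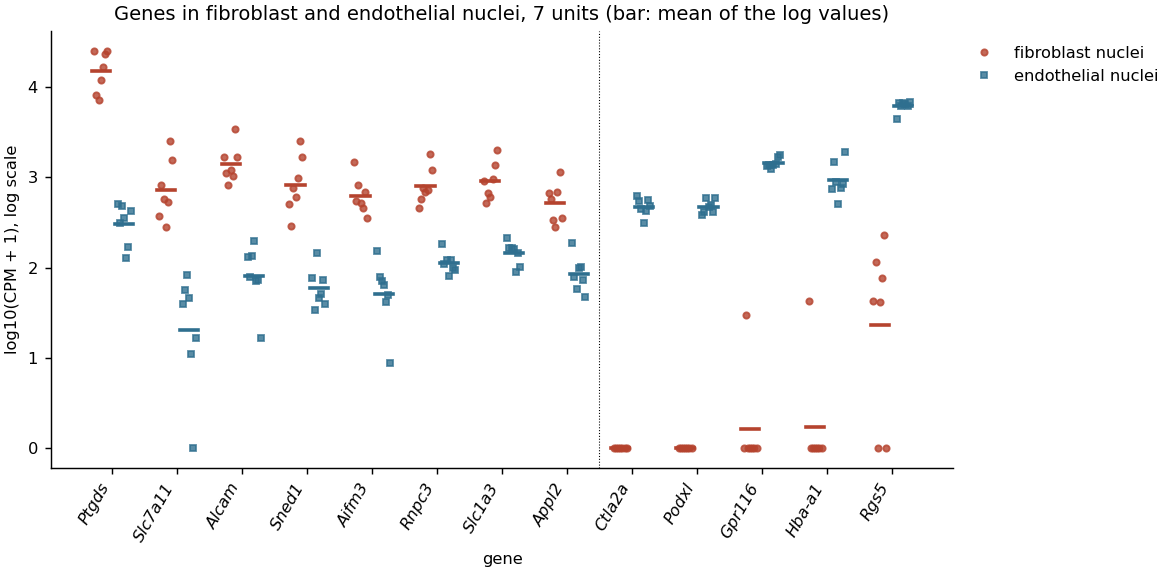
Each symbol is 1 of 7 units, with log10(CPM + 1) on the vertical axis for 8 genes higher and 5 genes lower in fibroblast (circles) than in endothelial nuclei (squares), and bars as means of the log values. Nuclei that passed both gates are left out of the plot. Ctla2a and Podxl are at 0 in the 7 sums of the remaining 95 fibroblast nuclei, while Rgs5 is at 4394 to 6835 CPM in the endothelial sums.

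The third comparison was between regions. Fibroblast nuclei made 0.842%, 0.284%, 0.753% and 0.771% of nuclei in Hippocampus 0, 1, 2 and 3, and 0.803%, 1.35%, 1.02% and 1.01% in Cortex 0, 1, 2 and 3. Hippocampal units averaged 0.663% ± 0.255 and cortical units 1.04% ± 0.228 (SD over 4 units per region), which differ by -0.381 points, for which the exact permutation test gave a two-sided p of 0.0571, where 0.0286 is the smallest that 4 against 4 units can give. The groups overlapped, and the direction changed with thinning and with a stricter gate. After each nucleus was thinned to 500 UMIs, leaving out 897 shallower nuclei of hippocampus and 6 of cortex, the gate passed 0.477% in hippocampus and 0.322% in cortex. The stricter gate of 5 UMIs, 3 genes and 0.4% gave 0.397% and 0.306%. Median depth was 634.5 UMIs for hippocampal and 1427 UMIs for cortical fibroblast nuclei. The looser gate gave a difference of -0.803 points, leaving out doublet calls -0.313 and leaving out Cortex 0 -0.462, each with an exact permutation p of 0.0286. The call and the direction of the regional difference in share thus changed with these settings.

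Within the fibroblast nuclei 263 genes had enough counts for a test between regions, with 3 hippocampal and 4 cortical units. By edgeR's quasi-likelihood test 4 genes were higher in hippocampus (1.52%) and 0 lower (0%), and 41 had an unadjusted p under 0.05. The 4 were Vtn, Zic4, Apod and Mbp, and for each of them every hippocampal unit lay above every cortical one. For Vtn, Zic4 and Mbp the low-count filter fixed this. No cortical sum reached its limit, so these genes were tested only because all 3 hippocampal sums did. Vtn, the adhesive glycoprotein vitronectin, was at 570, 2963 and 4174 CPM in fibroblast nuclei of Hippocampus 0, 2 and 3, against 308, 133, 158 and 0 in Cortex 0, 1, 2 and 3, a log2 fold change of 3.62 ± 0.67 (adjusted p = 0.00628). Zic4 was at 835, 684 and 596, against 205, 79.7, 39.5 and 121, a log2 fold change of 2.52 ± 0.58 (edgeR adjusted p = 0.0362). Apod was at 2088, 6153 and 4174, against 1094, 770, 316 and 767, a log2 fold change of 2.10 ± 0.38 (edgeR adjusted p = 0.00628). Mbp, a myelin gene of oligodendrocytes, was at 797, 912 and 477, against 103, 186, 158 and 40.4, a log2 fold change of 2.32 ± 0.56 (edgeR adjusted p = 0.0437). All fibroblast nuclei together held 85 Vtn, 44 Zic4, 214 Apod and 46 Mbp UMIs. The fibroblast sums of Hippocampus 2 and 3 held only 4388 and 8385 UMIs, so Zic4 and Mbp levels there rest on few UMIs. Igf2 did not pass (edgeR adjusted p = 0.0667). Its hippocampal values of 494, 2279 and 1073 lay above the cortical ones of 274, 212, 119 and 0, an order the filter also fixed. The 5 genes with the smallest p in the other direction also did not pass. These were Gprasp1, Arpp21, Srpk1, Soga3 and Celf4, and Arpp21, a cortical neuron gene, was at 304, 0 and 0 in hippocampus, against 684, 691, 830 and 848 in cortex.

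Levels in the other nuclei and other markers differed between regions as well. Mbp averaged 365 CPM in other nuclei of hippocampus and 107 in those of cortex, Apod 115 and 54.2, Vtn 113 and 72.0, and Zic4 12.8 and 6.63. Oligodendrocyte genes summed to 2371 CPM in fibroblast nuclei of hippocampus and 821 in those of cortex. Mural genes, Vtn among them, summed to 1968 and 838. Choroid plexus and ependymal genes summed to 3320 and 8.55 CPM over the pooled fibroblast nuclei of each region, but Hippocampus 0 carried the first value. In fibroblast nuclei the hippocampal units ran between 228 and 5126 CPM with a median of 446, and all 127 Ttr UMIs of fibroblast nuclei were in Hippocampus 0. In the other nuclei these genes summed to 603 and 12.2, with hippocampal units between 83.6 and 1228 and a median of 121. Neocortical neuron genes summed to 427 and 1052 in fibroblast nuclei. Their part in the regional differences was not tested. No gene was called without Cortex 2, and without Hippocampus 0 the counts were 14 higher and 26 lower, so the number of regional genes rested on single units. Without the 31 nuclei that passed another gate Vtn, Zic4 and Apod still passed, with log2 fold changes of 3.501, 2.86 and 2.28, and Mbp did not. This setting also lost Hippocampus 3, so it set 2 hippocampal against 4 cortical units.

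A last test asked whether the regional difference itself differed between fibroblast and other nuclei. The interaction was the hippocampus minus cortex difference in fibroblast nuclei minus the same difference in other nuclei. Of 11068 genes 0 were called with a positive interaction (0%) and 2 with a negative one (0.0181%), with 629 at an unadjusted p under 0.05. In simulated data this fit recovered 0% of log2 changes of 1 and 0% of those of 2. These counts thus cannot show that the regional difference was alike in both classes. Zbtb20, a repressor that is high in hippocampal neurons, was at 1253, 684 and 2385 CPM in fibroblast nuclei of Hippocampus 0, 2 and 3, against 615, 1089, 870 and 444 in Cortex 0, 1, 2 and 3. In other nuclei it was at 1477 to 2315 in hippocampus and 198 to 329 in cortex. The interaction was -2.75 ± 0.57 on the log2 scale (edgeR adjusted p = 0.0135), and it was not called when any 1 of the 4 cortical units was left out (adjusted p of 0.0534 without Cortex 0 to 0.785 without Cortex 1). Sdc4, the heparan sulfate proteoglycan syndecan 4, was at 0, 0 and 238 in fibroblast nuclei of hippocampus, against 103, 372, 237 and 121 in cortex. In other nuclei it ran the other way, at 71.2 to 95.2 in hippocampus and 17.1 to 34.6 in cortex. Its interaction of -4.21 ± 0.92 (edgeR adjusted p = 0.0291) was not called with total UMIs (edgeR adjusted p = 0.185), nor without Cortex 1, Cortex 2, Hippocampus 0 or Hippocampus 2. Vtn had an interaction of 2.38 ± 0.57 (edgeR adjusted p = 0.0799), and Mbp of 0.14 ± 0.67.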

How the data were processed

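The authors deposited a table of raw UMI counts for 23589 genes and 13313 nuclei, judged by its name and whole numbers. STAR 2.4.0a24, Seurat and the build mm10 were used, per the submitters' processing notes. The sources used here do not give the collapsing of UMIs, the counting of introns or the selection of nuclei. Frozen tissue was homogenised and nuclei were washed in EZ PREP buffer, per the labels' protocols. Columns were assigned by the start of their names, and 1689 columns that match no labelled library were not used.

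The members and the gene lists were chosen with earlier results of these data known. Counts were summed per unit and class and tested with edgeR 4.0.16 in R 4.3.3 (TMM, filterByExpr, quasi-likelihood test, Benjamini-Hochberg over all genes tested, gate genes left out of the calls). Levels are CPM of a sum without a scaling factor. Shares were compared by exact permutation over units. Exact binomial intervals (95%) carry only the counting error. Alternatives included DESeq2 1.42.0. Doublets were scored per library in scanpy 1.11.5, the nuclei at or above the 94th percentile were called, and they were kept in the main results. Fits were tested on simulated data with log2 changes of 1 and 2. Recovered were 3.06% and 30.4% against other nuclei, and 90.6% and 100% against endothelial nuclei. Between regions 39.8% and 96.5% were recovered, and in the interaction 0% and 0%. Genes were named by a rule on adjusted p, at least 100 scaled CPM and units on 1 side (15 higher and 8 lower against other nuclei, 8 and 5 against endothelial nuclei), plus list members with the smallest p. Positions of 566 of 569 genes came from GENCODE vM21 (GRCm38) by symbol, and promoters from RefSeq. Some members of the gene lists are counted but not reported by name here.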

Additional observations from a re-analysis of the deposited data

Results flagged for a closer look

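Among 29 sets of values over units, 3 held a unit far from the others, where chance alone gives about 1 in 20. The share of fibroblast nuclei in Hippocampus 1 was 0.284%, below the 0.753% to 0.842% of the other hippocampal units. The median fibroblast nucleus of Cortex 0 held 2110 UMIs, above the 1326 to 1411.5 of the other cortical units. Pcolce in fibroblast nuclei of Cortex 0 was at 394.7 scaled CPM, from 11 UMIs, against 1, 2 and 1 UMIs in Cortex 1, 2 and 3.

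In 2 genes the regional difference differed between fibroblast and other nuclei by the interaction test. Sdc4 had a value of -4.21 on the log2 scale and Zbtb20 of -2.75.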

How the results depend on the processing

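The 15 genes named as higher than in other nuclei were all called with other size factors, total UMIs, no low-count filter, title numbers 1 to 3, DESeq2 and each unit left out. Without excitatory-UMI nuclei 13 of the 15 could be fitted and 10 of these lost their call, without nuclei in another gate 10 could be fitted and were called, and with other nuclei thinned 1 could be fitted and was called. The alternatives with total UMIs and with excitatory-UMI nuclei left out were chosen after seeing the data, and the second of these keeps 14 fibroblast nuclei in 2 units. Where a count or direction moved, the cause was not tested.

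The hippocampus minus cortex share was 0.155 points (p = 0.4) after thinning, 0.0912 (p = 0.6) with the stricter gate, -0.803 with the looser gate and -0.313 without doublet calls (both p = 0.0286, exact permutation), and -0.462 to -0.255 with 1 unit left out. Genes per nucleus after thinning differed by 3.5 (exact permutation p = 0.422).

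Genes higher than in other nuclei numbered 277 with total UMIs, 273 without the filter, 92 with numbers 1 to 3, 74 with the stricter gate, 59 without nuclei in another gate, 4 without excitatory-UMI nuclei, 24 with other nuclei thinned to the fibroblast total, and 104 to 182 with 1 unit left out. Genes lower numbered 178 by RLE, 77 by total UMIs, 490 without the filter, 28 with numbers 1 to 3, 1305 with the stricter gate, 120 without nuclei in another gate, 492 without doublet calls, 7 without excitatory-UMI nuclei, 136 by DESeq2, 552 without the replicate block of unit, 20 with thinning, and 99 to 262 with 1 unit left out.

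Against endothelial nuclei, higher genes numbered 83 by RLE, 236 without the filter, 36 with the stricter gate, 20 without excitatory-UMI nuclei and 113 to 297 with 1 unit left out. Lower genes numbered 1838 without the filter, 115 with the stricter gate, 29 without excitatory-UMI nuclei and 176 to 408 with 1 unit left out.

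Between regions, higher genes numbered 2 without the filter, 17 with numbers 1 to 3, 1 with the stricter gate and 0 to 14 with 1 unit left out. Lower genes numbered 26 with numbers 1 to 3, 2 with the stricter gate, 4 without doublet calls and 0 to 26 with 1 unit left out. Same-numbered units correlated at -0.01, -0.01 and -0.14 over 270 genes, and differently numbered units at -0.15 to 0.23. With so few pairs of shallow sums, these values cannot decide whether the numbers pair the samples. The title number as a replicate block left 0 calls. In the interaction, higher genes numbered 1 by RLE, by total UMIs, with numbers 1 to 3 and without doublet calls, and 0 to 1 with 1 unit left out. Lower genes numbered 1 by RLE and without the filter, 20 with numbers 1 to 3, 0 with the stricter gate and without nuclei in another gate, 4 without doublet calls, and 0 to 45 with 1 unit left out.

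Without nuclei in another gate the log2 fold change was -0.58 for Id3, -0.39 for Htra1, -1.56 for Igfbp5, -0.20 for Fgfr3, -0.22 for Gja1 and -2.61 for Aqp4. With the stricter gate it was -0.28 for Htra1 and -0.12 for Igfbp5. Without excitatory-UMI nuclei it was -10.54 for Htra1, -10.04 for Igfbp5, -10.75 for Aqp4, -0.44 for Fgfr1, -0.11 for Nr2f2, -0.54 for Gja1 and -0.31 for Apoe, none of them called.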

Other observations

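Spo11, known for making the DNA breaks of meiotic recombination, was chosen after its values were seen. It had 27 UMIs in the series, of which 19 (70.4%) lay in 10 of the 103 fibroblast nuclei and 8 in other nuclei, a summed level of 119.4 CPM in fibroblast nuclei against 0.399 in other nuclei. The 19 UMIs came from Hippocampus 0 (9), Cortex 0 (7) and Cortex 2 (3), with none in the other 5 units. It was under the low-count filter, and without the filter its log2 fold change was 7.34 ± 0.66 (edgeR adjusted p = 9.71e-26). No endothelial-gated nucleus had a Spo11 UMI.

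Nnat, an imprinted membrane protein gene of developing brain, was also chosen after its values were seen. It was at 228, 513 and 1494 CPM (lowest, median and highest unit) in fibroblast nuclei, against 14.6, 25.3 and 70.0 in other nuclei, a log2 fold change of 3.83 ± 0.33 (edgeR adjusted p = 2.33e-27). Its fibroblast UMIs lay in 39 nuclei.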
